A study of Mus musculus with 12 samples.

Results

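The RNA splicing machinery was followed here through 46 genes on 12 arrays of newborn mouse forebrain. The genes are those whose symbol names an SR protein (Srsf and a number), an hnRNP protein (Hnrnp), a subunit of the SF3A or SF3B complex, or a protein of the small nuclear ribonucleoproteins (Snrp), read from probe sets with a single gene symbol. They are 46 of the 19938 genes the arrays name in this way: 10 SR genes, 17 hnRNP genes, 9 SF3 genes and 10 Snrp genes. All 46 passed the filter on dim genes and belong to the 14195 genes tested. Hnrnpa1, Hnrnpa1l2-ps2, Hnrnpa3, Hnrnph3, Snrpf and Snrpn were read only by probe sets that also carry other genes' symbols, so these 6 were left out.

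The mice were of 4 genotypes, taken on postnatal day 0, with 3 mice each and 1 array per mouse. Control mice had the genotype Ctnnb1(ex3)Fl/+SmoM2Fl/+, both floxed alleles without Cre. The other mice also carried hGFAP-cre, in which the human GFAP promoter drives the recombinase, active in radial glia and their progeny: GB mice with Ctnnb1(ex3)Fl/+, GS mice with SmoM2Fl/+, and GBS mice with both alleles. Cre removes exon 3 of the Ctnnb1 allele, which leaves a stable beta-catenin that drives WNT target genes, and it switches on SmoM2, an active form of Smoothened in the sonic hedgehog pathway. The GBS arrays hold forebrain tumor, per the labels, and the series presents these mice as a model of embryonal tumors with multilayered rosettes. No Cre-only mice are among these groups, so in comparisons with Control Cre itself and the recombined alleles cannot be told apart. GB, GS and GBS mice all carry hGFAP-cre. Bulk tissue was measured, and fewer cells of a type and less RNA per cell cannot be told apart in it.

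Splicing removes introns from the primary transcript in 2 chemical steps carried out by the spliceosome. The U1 particle binds the start of the intron and the U2 particle, with its SF3A and SF3B complexes, clasps the branch point; a tri-particle of U4, U6 and U5 then joins and the catalytic centre forms. Each of U1, U2, U4 and U5 is built on a ring of Sm proteins, which the Snrpb, Snrpd, Snrpe, Snrpf and Snrpg genes encode. SR proteins bind exons and mostly favour the use of nearby splice sites, and hnRNP proteins bind introns and exons and often oppose it, so that the balance between them sets many alternative exons in the developing brain.

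Promoters are shown for 4 genes that were higher in the tumor and whose windows hold the same short element. RefSeq windows of build GRCm38.p6, from 250 bases before to 50 bases after the transcript start, were found for 40 of the 46 genes (54 windows, since some genes have several starts). The ETS-type element CCGGAAG, searched on both strands, lay in the windows of 15 of the 40 genes (37.5%), against 9.93% of all 27025 genes with a window. By family it was found in 6 of 7 SF3 genes, 4 of 8 Snrp genes, 3 of 10 SR genes and 2 of 15 hnRNP genes. The 250 bases before the start follow, 5′ to 3′ on the strand of the gene, with the element in capitals (CTTCCGG is the same element read on the other strand). Sf3a1 lies at chr11:4160104-4160353 (plus strand) with the element's first base at -7 from the start, and Sf3a3 at chr4:124714611-124714860 (plus strand) with the element at -90. Sf3b3 lies at chr8:110846804-110847053 (minus strand) with the element at -229, and Snrpg at chr6:86371290-86371539 (plus strand) with the element at -145.
Sf3a1: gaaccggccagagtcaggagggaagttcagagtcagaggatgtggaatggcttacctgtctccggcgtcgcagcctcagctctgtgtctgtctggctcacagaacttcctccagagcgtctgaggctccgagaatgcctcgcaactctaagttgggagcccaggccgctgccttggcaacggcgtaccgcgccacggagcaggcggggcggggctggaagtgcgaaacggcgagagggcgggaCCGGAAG
Sf3a3: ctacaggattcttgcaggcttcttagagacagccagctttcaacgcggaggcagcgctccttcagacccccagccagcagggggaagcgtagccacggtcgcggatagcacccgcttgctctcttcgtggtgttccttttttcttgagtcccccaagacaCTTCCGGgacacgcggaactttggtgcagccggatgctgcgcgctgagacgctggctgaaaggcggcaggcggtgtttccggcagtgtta
Sf3b3: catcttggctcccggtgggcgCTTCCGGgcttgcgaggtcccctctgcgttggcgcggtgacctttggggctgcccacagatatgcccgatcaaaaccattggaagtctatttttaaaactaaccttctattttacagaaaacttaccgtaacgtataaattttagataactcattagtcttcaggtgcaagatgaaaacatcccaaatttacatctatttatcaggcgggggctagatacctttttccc
Snrpg: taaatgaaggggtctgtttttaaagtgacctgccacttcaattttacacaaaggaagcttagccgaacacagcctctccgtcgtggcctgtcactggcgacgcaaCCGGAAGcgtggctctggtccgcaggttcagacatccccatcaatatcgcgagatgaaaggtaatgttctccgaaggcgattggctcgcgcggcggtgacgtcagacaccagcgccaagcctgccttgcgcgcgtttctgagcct
The element was present in 8 of the 13 genes called higher in GBS against Control and in 7 of the other 27 with a window. The called genes Srsf3, Srsf6, Hnrnph2, Hnrnpl and Hnrnpul1 lacked it, and the SF3 genes Sf3a2 and Sf3b6, not called, held it. Its share among all genes called higher was not counted, and the 27025 genes include genes not tested here. A link between the element and the rise was not tested. Other elements searched in the same way were the E2F-type TTTCCCGC, in 10% of the genes against 1.24% of all genes, and its other form TTTGGCGC, in 0% against 0.585%. CCAAT was found in 47.5% against 41.1% and the E-box CACGTG in 12.5% against 8.09%. The TCF/LEF-type CTTTGAA was found in 2.5% against 5.93% and the GLI-type TGGGTGGTC in 0% against 0.289%. The windows of the splicing genes were richer in G and C, with a median of 61% against 52.7% for all 32851 windows. A match describes letters in a window, and binding was not measured here.

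The mean of the forebrain markers Emx1, Emx2, Lhx2 and Dlx2 was 7.77 to 7.88 in GBS and 7.30 to 7.51 on the other arrays, and whether a probe set lay above background was not called in these values. Axin2, a direct WNT target, read 8.66 to 9.04 in GBS and 7.58 to 7.95 in GB, above 6.99 to 7.18 in Control and 7.01 to 7.16 in GS. Gli1, a direct hedgehog target, read 7.98 to 8.11 in GBS, but its 7.51 to 7.80 in GS overlapped 7.64 to 7.91 in Control, and GB, without SmoM2, read 7.56 to 7.99, with replicate 2 inside the GBS range. Xist, expressed in female cells, was high in GS replicates 2 and 3 and GB replicates 2 and 3 and low on the other arrays, so GBS and Control match in sex and the other comparisons do not.

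Several arrays stood apart in the splicing genes. GB replicate 2 lay below both other GB arrays for 34 of the 46 genes and above both for 9, whereas over all genes tested the shares were 36% below and 57.8% above. Its difference from the mean of the other GB arrays had a median of -0.78 (log2) over the splicing genes, from -2.21 for Hnrnpu to 0.42 for Snrpc, against 0.15 over all genes. GS replicate 3 was the lowest of its group for 36 of the genes and Control replicate 3 for 37, with median differences of -0.24 and -0.25. GBS replicate 2 was the highest of its group for 39, with a median difference of 0.23. The median level of 1190 olfactory and vomeronasal receptor genes, which forebrain hardly uses, was 5.35 on GB replicate 2, 5.23 on GS replicate 3 and 5.23 on Control replicate 3, against 4.88 to 5.17 on the other GS, GB and Control arrays and 4.84 to 4.92 in GBS. That level moved with genotype as well as with these arrays, and its part in the results below was not tested beyond the alternative fits given beside them.

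**Figure D1:**
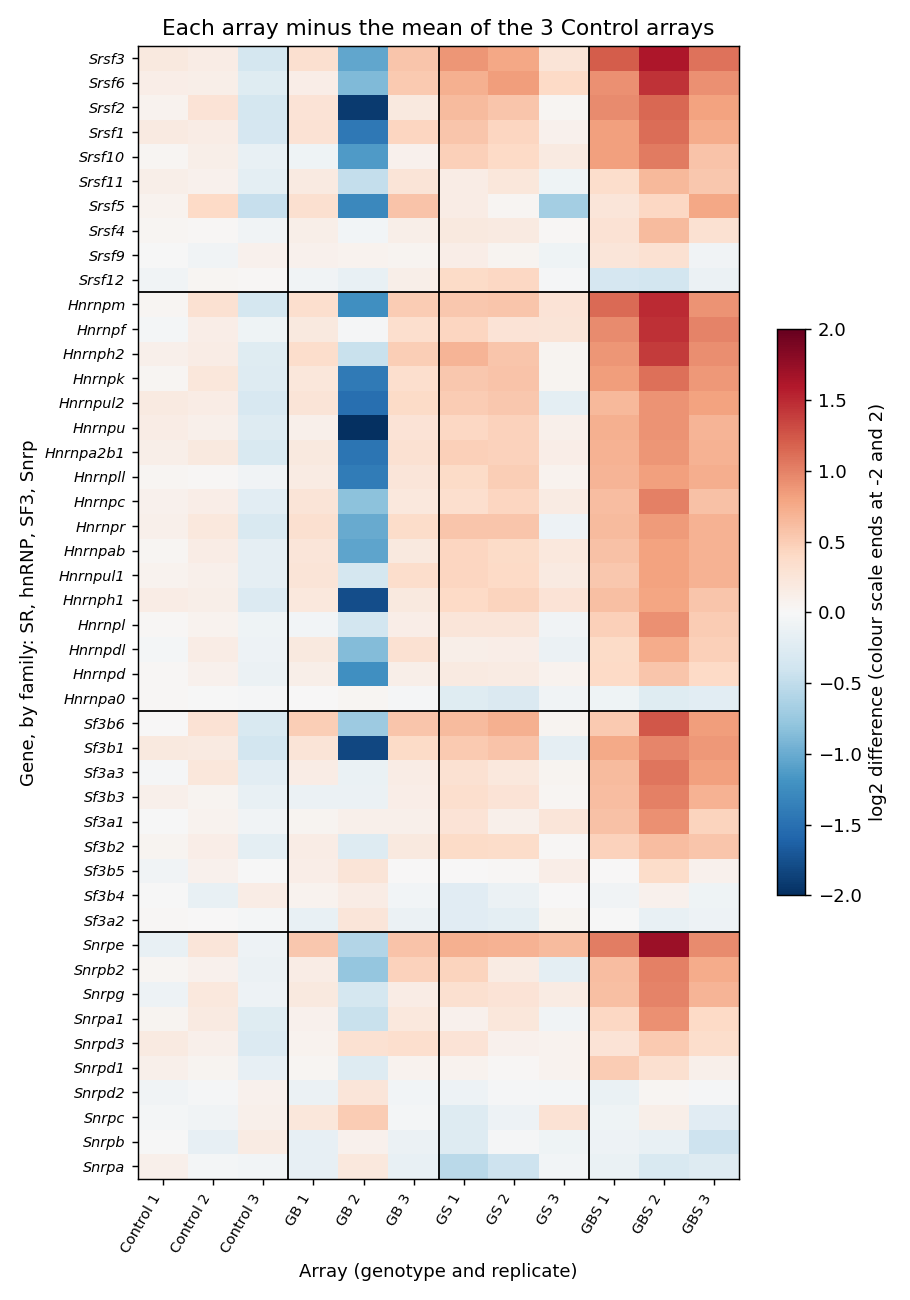
Each of the 46 genes (rows, by family) on each of the 12 arrays (columns), as the log2 value minus the mean of the 3 Control arrays, with red above and blue below that mean and the colour scale ending at -2 and 2. The GBS columns are red for most genes, GB replicate 2 is blue for most SR and hnRNP genes, and the last rows of the SF3 and Snrp blocks stay pale in every genotype.

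Of the 46 splicing genes, 13 rose in the GBS tumor against Control forebrain (28.3%), 0 fell and 33 did not pass the test in the limma fit, against 11% of all genes tested called higher and 4.35% called lower at an adjusted p under 0.05. The median log2 difference was 0.69 over the 46 genes and -0.10 over all genes tested, and 38 of the 46 lay above 0 against 41.1% of all genes. At an unadjusted p under 0.05 there were 26 higher and 0 lower. The share of all genes at that p was not counted, here or in the comparisons below. All 3 GBS arrays lay above all 3 Control arrays for 34 of the 46 genes (28.8% of all genes) and below them for 3 (35.7% of all genes). GBS arrays lay above all 9 arrays of the other genotypes for 32 of the 46, against 13.6% of all genes tested.

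The count moved with the arrays used and with a covariate, and so did the share of all genes called. Without GB replicate 2, an array of neither group, 35 of the 46 were called higher, against 23% of all genes. With only the GBS and Control arrays in the fit 34 were higher, against 24.4%, and 1 lower, Srsf12, against 21.8%. Without GB replicate 2, GS replicate 3 and Control replicate 3 there were 33 higher, against 23.5%, and 1 lower, Snrpa, against 18.9%. These 3 arrays were picked from the same data because they deviate together. GBS replicate 2, which stood apart upward, was kept, so counts without the 3 arrays, here and below, are not independent support. The count was 4 without GBS replicate 2 (4.45% of all genes), 4 without Control replicate 1 (5.65%), 4 without Control replicate 3 (4.66%) and 7 without Control replicate 2 (6.41%). With the receptor-gene level as a covariate it was 4, against 5.56% of all genes, and the median difference of the 46 was 0.13 in place of 0.69. Hnrnpf, Sf3b3, Sf3a3 and Sf3a1 were called in every one of these fits, with adjusted p of at most 0.0297. The other 9 each lost the call without GBS replicate 2, without Control replicate 1, without Control replicate 3 and with the receptor covariate.

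**Figure D2:**
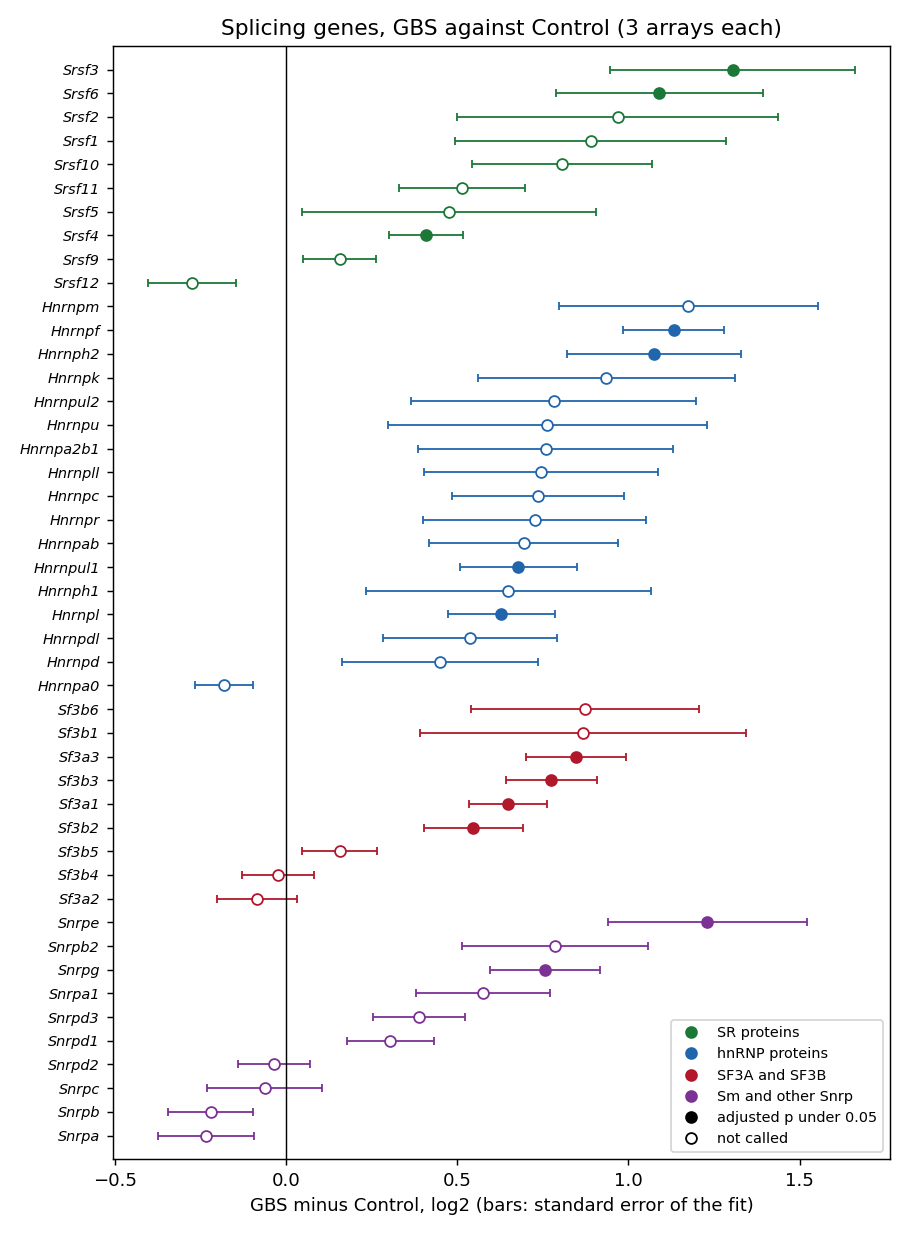
Log2 difference of GBS minus Control (x axis) for the 46 genes, ordered by size within the 4 families, with bars of 1 standard error of the limma fit and filled points at an adjusted p under 0.05. The differences run from -0.28 for Srsf12 to 1.30 for Srsf3, and the 13 filled points are all above 0.

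Among the SR genes 3 of 10 rose in GBS against Control, against 11% of all genes called higher. The family median was 0.66, and 9 of 10 lay above 0, against 41.1% of all genes. Srsf3, the smallest SR protein, which also links splicing to the export of messenger RNA, read 10.26, 10.65 and 10.12 in GBS, 9.92, 9.81 and 9.29 in GS, 9.36, 8.01 and 9.60 in GB and 9.23, 9.19 and 8.69 in Control. On this probe set, which stands for the gene, every GBS array lay above the other 9. The GS arrays lay above the Control arrays, and GB replicate 2 was the lowest of all. Srsf3 rose 2.47-fold, a log2 difference of 1.30 ± 0.36 (standard error) with an adjusted p of 0.0345. Srsf6, a regulator of alternative exons, read 8.31, 8.84 and 8.32 in GBS, 8.11, 8.23 and 7.80 in GS, 7.53, 6.51 and 7.92 in GB and 7.52, 7.51 and 7.16 in Control. Its order over the genotypes was that of Srsf3 in the values above, again with GS above Control without overlap. Srsf6 rose 2.13-fold (1.09 ± 0.30, adjusted p = 0.036). The array values of Srsf4, one of the larger SR proteins, were 8.04, 8.38 and 8.05 in GBS, 7.94, 7.93 and 7.77 in GS, 7.86, 7.69 and 7.87 in GB and 7.79, 7.78 and 7.68 in Control. The GBS arrays were again highest, but by a small margin over GS. Srsf4 rose 1.33-fold (0.41 ± 0.11, adjusted p = 0.0308). When single arrays were left out, Srsf3 lost its call in 7 of 12 fits, Srsf6 in 8 and Srsf4 in 4. Another probe set of Srsf3 was called at 0.96, and the last, at 0.76, was not (adjusted p = 0.286). Every GBS array lay above the other 9 on the called one. On the last, GBS replicate 1 (8.54) lay below GS replicates 1 and 2 (8.68 and 8.65). GS replicate 3 overlapped Control on each of these probe sets, and GB replicate 2 was the lowest on each. Genome positions of the probe sets were not checked, so which of them reads the Srsf3 locus itself is not known here.

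The other SR genes did not pass the test on the probe set that stands for them. Srsf10, an SR protein that represses splicing when it loses its phosphates in heat shock and mitosis, differed by 0.81 ± 0.26 (adjusted p = 0.0612), although its second probe set, taken alone, was called at 1.15 (adjusted p = 0.0417). Srsf11 differed by 0.51 ± 0.18 (adjusted p = 0.0778). Srsf1 and Srsf2, the classic SR proteins, had differences of 0.89 ± 0.40 and 0.97 ± 0.47 with adjusted p of 0.125 and 0.146. Their GBS arrays lay above every other array, and their wide errors came with low values on GB replicate 2, 6.67 for Srsf1 and 7.23 for Srsf2. Srsf5, the SR gene with the highest mean, read 10.48, 10.64 and 11.01 in GBS, 10.39, 10.28 and 9.56 in GS, 10.56, 8.95 and 10.81 in GB and 10.31, 10.63 and 9.77 in Control. Srsf9, with the lowest mean, read 7.01, 7.08 and 6.71 in GBS, 6.90, 6.83 and 6.69 in GS, 6.86, 6.85 and 6.84 in GB and 6.76, 6.70 and 6.86 in Control. GBS overlapped Control in both, and they differed by 0.47 ± 0.43 and 0.16 ± 0.11 (adjusted p = 0.382 and 0.259).

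Srsf12 went the other way. This relative of Srsf10 read 6.65, 6.62 and 6.87 in GBS, 7.37, 7.40 and 6.97 in GS, 6.92, 6.85 and 7.11 in GB and 6.92, 7.03 and 7.02 in Control. GBS arrays were the lowest apart from GB replicate 2, which lay just below GBS replicate 3, and GS replicates 1 and 2 were the highest. Against Control its difference was -0.28 ± 0.13 with an adjusted p of 0.134, past the threshold only in some alternative fits, among them the one with GBS and Control arrays alone (adjusted p = 0.0441) and the one with the receptor covariate (0.019).

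Among the hnRNP genes 4 of 17 rose in GBS against Control, against 11% of all genes called higher. Of the 17, 16 lay above 0 and had every GBS array above the other 9. The family median (0.74) was the highest in the main fit. With quantile normalization the SF3 median was higher (0.59 against 0.48), as it was without the 3 arrays that stood apart (0.61 against 0.60). With the receptor covariate the hnRNP median was -0.07, the lowest of the families, and 7 of 17 lay above 0. Hnrnpf, which binds runs of G and regulates alternative exons, gave the lowest adjusted p of the 46 genes. Its values were 10.09, 10.61 and 10.15 in GBS, 9.59, 9.43 and 9.41 in GS, 9.36, 9.12 and 9.49 in GB and 9.11, 9.29 and 9.06 in Control. GBS stood clear of all other arrays, GS lay above Control without overlap, and GB replicate 2 was not far from its group. Hnrnpf rose 2.19-fold (1.13 ± 0.15, adjusted p = 0.000963). Each of its 4 probe sets, taken alone, was called, with differences of 1.13 to 1.28. Whether these probe sets read the same stretch of transcript was not checked, so they do not count as separate support. Hnrnph2, a close relative of Hnrnpf on the X chromosome, read 8.25, 8.76 and 8.30 in GBS, 8.03, 7.92 and 7.42 in GS, 7.72, 6.92 and 7.85 in GB and 7.46, 7.51 and 7.11 in Control. Its GBS arrays were above all others, while GS and Control overlapped. Hnrnph2 rose 2.11-fold (1.07 ± 0.25, adjusted p = 0.0193), and its second probe set gave 1.09.

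Hnrnpl, which binds CA repeats, read 8.25, 8.69 and 8.28 in GBS, 8.02, 8.01 and 7.71 in GS, 7.73, 7.41 and 7.92 in GB and 7.81, 7.84 and 7.69 in Control. GBS arrays lay above the rest and GB replicate 2 was the lowest. Hnrnpl rose 1.55-fold (0.63 ± 0.16, adjusted p = 0.0242). Hnrnpul1, a relative of the nuclear scaffold protein Hnrnpu, read 8.83, 9.09 and 8.99 in GBS, 8.72, 8.68 and 8.47 in GS, 8.54, 7.93 and 8.64 in GB and 8.36, 8.39 and 8.12 in Control. The GS arrays lay between GBS and Control without touching either. Hnrnpul1 rose 1.6-fold (0.68 ± 0.17, adjusted p = 0.0256). Hnrnph1 and Hnrnph2, and Hnrnpf beside them, are close in sequence, and how far a probe set also reads a related transcript was not tested.

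Large differences with wide errors were common in the rest of the family. Hnrnpm had a difference of 1.17 ± 0.38 (adjusted p = 0.0588), Hnrnpc of 0.74 ± 0.25 (0.0695) and Hnrnpab of 0.69 ± 0.28 (0.099), each just outside the threshold. Hnrnpk, Hnrnpu, Hnrnpul2 and Hnrnpa2b1 differed by 0.76 to 0.93 with adjusted p of 0.101 to 0.219. Hnrnpd, with the highest mean of the family, read 10.98, 11.15 and 10.98 in GBS, 10.76, 10.75 and 10.65 in GS, 10.71, 9.36 and 10.70 in GB and 10.62, 10.67 and 10.48 in Control. Its GBS arrays were the highest and GB replicate 2 was far below the rest. The difference was 0.45 ± 0.29 (adjusted p = 0.233). Hnrnpa0, an hnRNP encoded by a single exon, had the lowest mean and was the only one of the family not above 0 in GBS against Control. It read 6.90, 6.74 and 6.78 in GBS, 6.75, 6.69 and 6.92 in GS, 6.99, 7.03 and 6.96 in GB and 7.01, 6.98 and 6.97 in Control, and its difference was -0.18 ± 0.08 (adjusted p = 0.136). Both GBS and GS arrays lay below those of GB and Control.

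Of the SF3 genes 4 of 9 rose in GBS against Control, against 11% of all genes called higher. The family median was 0.65. SF3A and SF3B are the parts of the U2 particle that hold the branch point. The SF3A subunit gene Sf3a3 read 7.09, 7.53 and 7.28 in GBS, 6.76, 6.67 and 6.51 in GS, 6.61, 6.32 and 6.61 in GB and 6.43, 6.68 and 6.25 in Control. GBS arrays lay above the other 9, and the other genotypes overlapped. Sf3a3 rose 1.8-fold (0.85 ± 0.15, adjusted p = 0.00478). Sf3a1, the largest SF3A subunit, read 7.12, 7.43 and 6.96 in GBS, 6.79, 6.63 and 6.77 in GS, 6.57, 6.62 and 6.62 in GB and 6.52, 6.60 and 6.45 in Control. GB replicate 2 lay with its group here, unlike in most other genes. Sf3a1 rose 1.57-fold (0.65 ± 0.11, adjusted p = 0.00528). The third SF3A gene, Sf3a2, differed by -0.09 ± 0.12 (adjusted p = 0.562), so 2 of the 3 genes of this trimer were called.

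The SF3B gene Sf3b3, which encodes the large propeller-shaped scaffold of the complex, read 8.31, 8.70 and 8.39 in GBS, 8.02, 7.96 and 7.73 in GS, 7.57, 7.57 and 7.82 in GB and 7.79, 7.75 and 7.53 in Control. GBS arrays were above every other array, and GB and Control overlapped. Sf3b3 rose 1.71-fold (0.77 ± 0.13, adjusted p = 0.00446). Sf3b2, another large SF3B subunit, had values of 7.79, 7.95 and 7.89 in GBS, 7.72, 7.71 and 7.36 in GS, 7.48, 7.08 and 7.52 in GB and 7.39, 7.47 and 7.14 in Control. The gap between the lowest GBS and the highest GS array was narrow. Sf3b2 rose 1.46-fold (0.55 ± 0.15, adjusted p = 0.0308). Sf3b1, the subunit most often mutated in human cancers and the SF3 gene with the highest mean, read 10.05, 10.27 and 10.15 in GBS, 9.81, 9.86 and 9.11 in GS, 9.55, 7.48 and 9.68 in GB and 9.48, 9.46 and 8.93 in Control. GBS arrays were again above all others, but GB replicate 2 lay far below. Its difference of 0.87 ± 0.48 had an adjusted p of 0.182. Sf3b6, which touches the branch point adenosine, differed by 0.87 ± 0.33 (adjusted p = 0.0909), Sf3b4 by -0.02 ± 0.11 (0.859), and Sf3b5 by 0.16 ± 0.11 (0.273). The array values of Sf3b5, the family's gene with the lowest mean, were 6.20, 6.56 and 6.28 in GBS, 6.20, 6.21 and 6.33 in GS, 6.33, 6.44 and 6.19 in GB and 6.12, 6.27 and 6.18 in Control, with overlap between all genotypes.

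By sign, the Snrp genes divided most in the main fit. Among these 10 genes 2 rose in GBS against Control, against 11% of all genes called higher, and 4 had differences below 0. The family median of 0.35 was the lowest of the 4 families in the main fit. With the receptor covariate the family median was 0.15, above the SR (0.07) and hnRNP (-0.07) medians, and 9 of the 10 genes lay above 0. Snrpe, an Sm ring protein, read 7.82, 8.51 and 7.74 in GBS, 7.51, 7.48 and 7.42 in GS, 7.34, 6.21 and 7.37 in GB and 6.65, 7.04 and 6.70 in Control. GBS arrays were highest, the GS arrays lay together above Control, and GB split into 2 high arrays and a low one. Snrpe rose 2.35-fold (1.23 ± 0.29, adjusted p = 0.0197). Snrpg, its neighbour in the ring and the family's gene with the highest mean, read 9.53, 9.91 and 9.60 in GBS, 9.24, 9.20 and 9.08 in GS, 9.12, 8.57 and 9.07 in GB and 8.82, 9.14 and 8.82 in Control. Here GS and Control overlapped. Snrpg rose 1.69-fold (0.76 ± 0.16, adjusted p = 0.0125), and its second probe set gave 1.22.

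The other genes of the Sm ring did not pass the test. Snrpd3 differed by 0.39 ± 0.13 (adjusted p = 0.0706), Snrpd1 by 0.30 ± 0.13 (0.111) and Snrpb by -0.22 ± 0.12 (0.188). Snrpd2 read 8.36, 8.54 and 8.48 in GBS, 8.39, 8.46 and 8.45 in GS, 8.37, 8.74 and 8.44 in GB and 8.43, 8.47 and 8.58 in Control. All genotypes overlapped, with a difference of -0.04 ± 0.10 (adjusted p = 0.789), and its 5 probe sets lay between -0.05 and 0.08. The U2-specific genes Snrpa1, with the lowest mean of the family, and Snrpb2 differed by 0.58 ± 0.20 and 0.78 ± 0.27, with adjusted p of 0.0678 and 0.0714. Snrpa1 read 7.19, 7.68 and 7.18 in GBS, 6.86, 7.01 and 6.70 in GS, 6.86, 6.33 and 6.99 in GB and 6.83, 6.96 and 6.54 in Control, with GBS above every other array. The U1-specific genes Snrpa and Snrpc differed by -0.23 ± 0.14 and -0.06 ± 0.17 (adjusted p = 0.214 and 0.766). Snrnp70, the other U1-specific protein gene, is not one of the 46 by its name, and differed by 0.72 ± 0.25 (adjusted p = 0.0736).

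**Figure D3:**
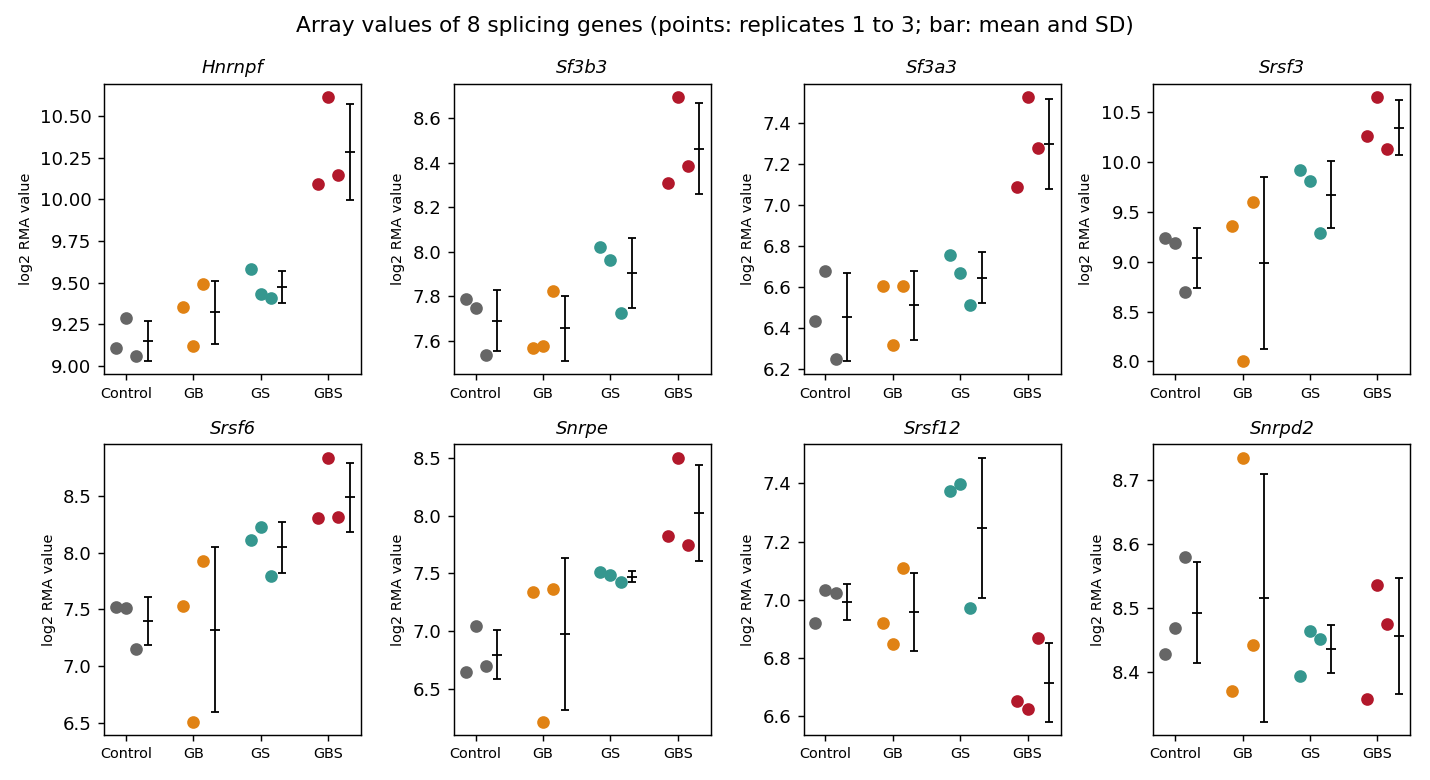
Log2 RMA values (y axes, which do not start at 0) of 8 genes in the 4 genotypes, with a point for each array and, beside them, the mean and standard deviation of the 3 arrays. GBS lies highest without overlap in Hnrnpf, Sf3b3, Sf3a3, Srsf3, Srsf6 and Snrpe, Srsf12 is highest on 2 GS arrays, and the genotypes overlap in Snrpd2.

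Against GS, the genotype with active Smoothened alone, GBS was higher in 3 of the 46 genes and lower in 1, against 3.56% of all genes called higher and 1.51% called lower. Hnrnpf was higher by 0.81 ± 0.15 (adjusted p = 0.0106), Sf3a3 by 0.65 ± 0.15 (0.0286) and Sf3b3 by 0.56 ± 0.13 (0.0353). Srsf12 was lower, with a difference of -0.53 ± 0.13 (adjusted p = 0.0379) and no overlap between the arrays. The median difference was 0.43 over the 46 genes and -0.03 over all genes. GBS arrays lay above all GS arrays for 35 of the genes, against 16.5% of all genes. Without the 3 arrays that stood apart, 20 were higher and 1 lower, against 8.2% and 8.77% of all genes. Without GB replicate 2 there were 17 higher, against 7.75% of all genes, and without GS replicate 2 there were 0, against 1.74%. Of the 12 fits that left out 1 array, Hnrnpf lost its call in 1 (without GS replicate 2), Sf3a3 in 6, Sf3b3 in 8 and Srsf12 in 8.

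Against GB, the genotype with stable beta-catenin alone, GBS was higher in 15 of the 46 genes and lower in 0, against 9.6% and 3.12% of all genes. Of the 13 genes called against Control 12 were called here too, all but Srsf4, whose difference was 0.35 ± 0.11 (adjusted p = 0.0564). These comparisons share the GBS arrays. The other genes called were Hnrnpm (1.30 ± 0.38, adjusted p = 0.0473), which binds G and U-rich sequences, Srsf10 (1.18 ± 0.26, 0.0198) and Hnrnpc (0.86 ± 0.25, 0.0488), which binds runs of U. In all 3 genes GB replicate 2 was the lowest array, and the GBS arrays lay above every other array. Hnrnpm read 9.89, 10.25 and 9.65 in GBS, 9.29, 9.31 and 9.03 in GS, 9.09, 7.53 and 9.27 in GB and 8.80, 9.07 and 8.41 in Control. Srsf10 read 9.73, 9.95 and 9.48 in GBS, 9.39, 9.32 and 9.09 in GS, 8.83, 7.79 and 9.0 in GB and 8.95, 9.03 and 8.77 in Control. The values of Hnrnpc were 8.29, 8.70 and 8.26 in GBS, 8.02, 8.11 and 7.84 in GS, 7.93, 6.86 and 7.89 in GB and 7.77, 7.81 and 7.47 in Control.

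GBS arrays lay above all GB arrays for 33 of the 46 genes, against 24.2% of all genes. The median difference over the 46 was 0.77, and -0.11 over all genes. With GBS and GB arrays alone in the limma fit 0 of the 46 genes were called, against 0.542% of all genes higher, and before adjustment 25 had a p under 0.05, each with a positive difference. The share of all genes at that unadjusted p was not counted. Without GB replicate 3 the count of called genes was 31, against 15.5% of all genes. It was 4 without GBS replicate 2, against 2.79%, and 4 with the receptor covariate, against 3.68%. Hnrnpf, Sf3b3, Sf3a3 and Sf3a1 kept their calls in all 12 fits that left out 1 array, Snrpg, Hnrnpl and Srsf10 lost theirs only without GBS replicate 2, and the other 8 lost theirs in 6 to 10 of those fits.

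Neither allele alone gave a call. In GS against Control 0 of the 46 genes were higher and 0 lower, as 0.0211% and 0% of all genes were in the limma fit, and at an unadjusted p under 0.05 there were 1 higher (Snrpe, 0.68 ± 0.29) and 2 lower (Hnrnpa0, -0.20 ± 0.08, and Snrpa, -0.33 ± 0.14). The median difference was 0.25 over the 46 and -0.02 over all genes, and GS arrays lay above all Control arrays for 11 genes (8.09% of all genes). Without the 3 arrays that stood apart 9 were higher and 1 lower, against 9.86% and 2.21% of all genes. In GB against Control 0 were higher and 0 lower, as 0% and 0% of all genes were, with 0 at an unadjusted p under 0.05 in either direction. The median difference was -0.05, against 0.00 over all genes, and no gene of the 46 had all GB arrays above Control, against 3.01% of all genes. A p that misses the threshold does not show that these genotypes were alike: the largest positive GS difference, in Snrpe, is a 1.6-fold change.

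The interaction sets GBS minus GS against GB minus Control. It asks whether adding stable beta-catenin moved a gene more when SmoM2 was present. Control lacks Cre, so GB minus Control also adds hGFAP-cre, which GS and GBS both carry. The contrast cannot tell these apart. In the limma fit 0 of the 46 genes were called higher and 0 lower, against 0.324% and 0.00704% of all genes, and at an unadjusted p under 0.05 there were 6 higher and 1 lower. That unadjusted share over all genes was again not counted. The median over the 46 genes was 0.53, and -0.03 over all genes. This contrast takes in GB replicate 2 and has the widest errors of the 6. With array weights 2 of the 46 were called higher and 1 lower, against 3.47% and 4.68% of all genes, so these shares are near or below the background.

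The low values of the splicing genes on GB replicate 2 and their differences between GBS and Control were set side by side. Across the 46 genes the difference of GB replicate 2 from the other GB arrays had a Pearson correlation of -0.69 and a Spearman correlation of -0.67 with the GBS minus Control difference. Across all 14195 genes tested the same values were -0.56 and -0.63. Genes with a larger GBS minus Control difference therefore tended to lie further below the other GB arrays on this array. That held over all genes tested as well as among the splicing genes, although the array enters neither the GBS nor the Control mean. These are values across genes, which are not independent replicates, and all come from 6 tumor and Control arrays and 3 GB arrays. Among the 13 genes called in GBS against Control, GB replicate 2 differed from its group by -0.30 in Hnrnpf, -0.29 in Sf3a3, -0.17 in Srsf4, -0.12 in Sf3b3 and 0.03 in Sf3a1, and by -1.47 to -0.41 in the other 8.

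**Figure D4:**
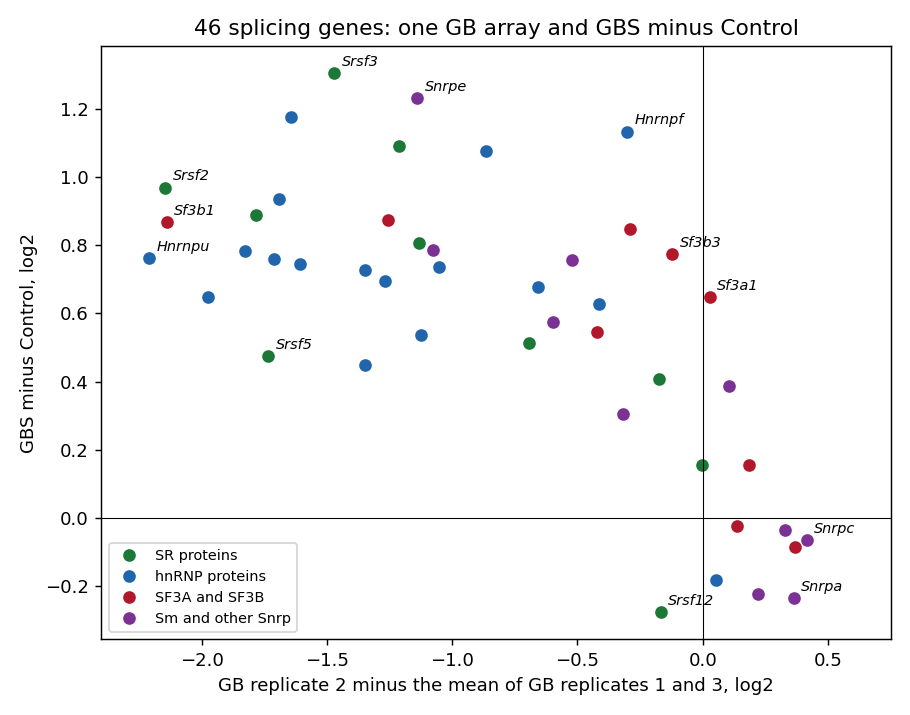
GB replicate 2 minus the mean of the other 2 GB arrays (x axis, log2) against GBS minus Control (y axis, log2), a point for each of the 46 genes, coloured by family. Points spread from Hnrnpu at -2.21 on the x axis to Snrpc at 0.42, and most genes left of 0 lie above 0 on the y axis.

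Other genes of the splicing pathway were counted in GBS against Control, where 11% of all genes tested were called higher and 4.35% lower. Of 24 tested proteins of the U1, U4/U6, U5 and minor spliceosome particles 7 rose and 0 fell, among them Zmat2 (0.79 ± 0.15, adjusted p = 0.0073), a protein present before the spliceosome is activated, Prpf3 (0.81 ± 0.17, 0.0124), a U4/U6 protein, and Snrnp48 (0.48 ± 0.11, 0.0191), of the minor spliceosome. Among the 3′ splice site and branch point factors 3 of 11 rose and 0 fell, with U2af1, the reader of the AG at the intron's end, at 0.62 ± 0.12 (0.00681), Dnajc8 at 0.47 ± 0.12 (0.0283) and the branch point binder Sf1 at 0.59 ± 0.18 (0.0442). Prp19 complex and catalytic step factors gave 6 of 27 higher and 0 lower, led by Snw1 (0.55 ± 0.09, 0.00274), Crnkl1 (0.95 ± 0.20, 0.0113) and the intron-binding helicase Aqr (1.11 ± 0.26, 0.0197). These lists' median differences were 0.40, 0.62 and 0.54, against -0.10 over all genes.

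The LSm proteins, relatives of the Sm proteins that ring U6 and the U7 particle of histone messages, gave 3 of 10 higher and 1 lower. Lsm6 (0.68 ± 0.17, adjusted p = 0.0248), Lsm3 (0.58 ± 0.15, 0.0282) and Lsm8 (0.82 ± 0.22, 0.0329), all of the U6 ring, rose, and Lsm11 (-0.33 ± 0.09, 0.0302), of the U7 particle, fell, and the list's median was 0.18. Of 12 genes of the SMN complex and its partners, which assemble the Sm rings, 1 rose, Prmt5 (0.58 ± 0.15, 0.0313), which methylates Sm proteins, a share below the 11% of all genes, with a median of 0.30. The 7 exon junction complex genes gave 0 calls in the limma fit, with a median of 0.27, and 2 of them, Sap18 and Eif4a3, had an unadjusted p under 0.05. Among 13 SR kinases and SR-related genes 2 rose, Tra2a (1.33 ± 0.33, 0.0248) and Tra2b (0.79 ± 0.24, 0.0485), a related pair of exon-binding regulators, a share near that of all genes, with a median of 0.72.

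Of 38 splicing regulators with a bias to brain or to stages of neural development 4 rose and 1 fell, shares near or below those of all genes, and the median was 0.25. Ptbp3 (1.23 ± 0.25, adjusted p = 0.00947), a relative of the polypyrimidine tract binder, Qk (1.29 ± 0.32, 0.0255), Tardbp (0.70 ± 0.18, 0.0256) and Mbnl2 (0.78 ± 0.23, 0.0431) rose, and the neuronal RNA-binding gene Elavl3 (-0.44 ± 0.13, 0.0469) fell. Khdrbs2, a neuronal regulator of neurexin splicing, was lower in GBS than in GS (-0.80 ± 0.19, adjusted p = 0.0349). None of these lists held a called gene in GS or GB against Control.

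Markers of other cell states moved with these results. The mean of 9 proliferation genes ran from 8.48 to 9.30 in GBS, 7.41 to 7.76 in GS, 6.66 to 7.23 in GB and 6.88 to 7.08 in Control, and 8 of the 9 were called higher in GBS against Control. Over 11 markers of postmitotic neurons the mean ran from 8.04 to 8.99 in GBS, 8.96 to 9.66 in GS, 7.89 to 9.30 in GB and 9.04 to 9.44 in Control, with 0 called higher and 4 lower, and GB replicate 2 gave the lowest value. Among the 8 progenitor and radial glia markers tested 5 were higher and 1 lower, and of the 3 meningeal markers tested 1, Dcn, was higher (3.79 on the log2 scale) and 0 lower, with a median of -0.19. The mean of all 4 meningeal markers, Dcn among them, was 7.56 to 7.67 in GBS and 6.58 to 6.85 in Control. Of 4 oligodendrocyte precursor markers 2 were lower and 0 higher, with a median of -0.45. Of 3 astrocyte markers tested 1 was lower and 0 higher, with a median of -0.24. Over all genes 11% were called higher and 4.35% lower in GBS against Control. Microglia and endothelium markers gave 0 calls. The part of these cell states in the levels of the splicing genes was not tested.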

How the data were processed

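Per the labels' protocols, total RNA of 12 mice was labelled with biotin. The submitters' processing notes name RMA and Affymetrix Expression Console. The deposited values are on a log2 scale (2.82 to 13.83, array medians 6.52 to 6.69), which was read from their range. Versions, build and annotation: not given in the sources used here. Of 35556 probe sets, the platform annotation gave 21789 a single symbol, and 21698 matched RefSeq GRCm38.p6 by gene identifier. Each gene was read from its probe set of highest mean (10 splicing genes had several). Genes above the 40th percentile of an array in at least 3 arrays were tested with limma 3.58.1 in R 4.3.3 (lmFit, eBayes, a mean per genotype, 12 arrays, 8 residual and 2.9 prior degrees of freedom), two-sided, with Benjamini-Hochberg adjustment over 14195 genes. Errors beside differences are standard errors of this fit. The number of arrays limits the precision, and levels are not comparable between probe sets. Filter, probe set rule, scaling, variance model, array weights, covariate, block, threshold and the arrays used were varied. The members and lists were chosen with earlier results of these data known. Given in full are genes called in any comparison and each family's highest and lowest means; genes with adjusted p of 0.05 to 0.10 are named, as are up to 3 genes of other lists by adjusted p and any that moved against their list. Lsm8, Mbnl2 and the array values of Snrpd2 were added after they were seen. The fit was tested on simulated data.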

Additional observations from a re-analysis of the deposited data

How the results depend on the processing

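The count of splicing genes higher in GBS against Control (13) stayed within 1.5 times without a filter on dim genes, with a filter at the 60th percentile, with a gene's probe sets averaged, with quantile normalization, with centring on array medians and with limma's trend and robust settings. It was 33 with array weights (whose estimation stopped before it converged) and without the 3 arrays that stood apart, 34 with the groups compared alone, 6 with the replicate block, 4 with the receptor covariate and 4 at an adjusted p under 0.01; leaving out single arrays gave 4 to 35. Lower genes in that comparison (0) became 2 with array weights and 1 without the 3 arrays. They became 1 with the receptor covariate and 1 with the groups alone. Array weights called 25.4% of all genes higher and 29.1% lower there, and the replicate block called 7% higher. Leaving out single arrays called 4.45% to 23% of all genes higher in that comparison. The share of all genes at an adjusted p under 0.01 was not counted in any comparison. GS against Control (0 and 0) became 28 higher and 3 lower with array weights, against 29.6% and 28.8% of all genes. It became 9 and 1 without the 3 arrays, against 9.86% and 2.21%. GBS against GS (3 higher) became 19 with array weights, 20 without the 3 arrays, 5 with the receptor covariate, 1 with centring, 1 with the replicate block and 0 at an adjusted p under 0.01, with 0 to 17 when single arrays were left out. Its 1 lower gene, Srsf12, became 0 with quantile normalization, centring, the replicate block, the groups alone or an adjusted p under 0.01. Without single arrays it was 0 to 1. Of all genes, array weights called 12.6% higher in GBS against GS and the receptor covariate 5.95%. Centring called 3.19% and the replicate block 2.14%. The fit without the 3 arrays called 8.2%, and those without single arrays 1.74% to 7.75%. GBS against GB (15 higher) became 25 with array weights, 29 without the 3 arrays, 8 with quantile normalization, 7 with the replicate block, 4 with the receptor covariate, 3 at an adjusted p under 0.01 and 0 with the groups alone, with 4 to 31 when single arrays were left out; its lower genes (0) became 1 with the receptor covariate. In GBS against GB array weights called 14.6% of all genes higher, the replicate block 4.61% and quantile normalization 6.69%. There the fit without the 3 arrays called 17.1%, and those without single arrays 2.79% to 15.5%. The interaction (0 and 0) became 2 higher and 1 lower with array weights. It became 1 lower without the 3 arrays and 1 lower with the receptor covariate, against 2.06% and 0.726% of all genes. Over the 32 calls of single genes in any comparison, 514 alternative values kept the call, 222 lost it in the same direction and 0 reversed; genes not called in the first place, some of which gained a call, are in the counts above only. Each probe set on its own was added after the data were seen: Srsf3 gave 1.30, 0.96 and 0.76, the last not called. Nothing in the labels pairs mice by number, and the deviations of same-numbered arrays from their group means correlated at -0.82 to 0.74 over 18 pairs, so the block values above describe a shared number only. The causes were not tested. Brightness over background was not measured here, so RMA's floor for dim probe sets stays unknown.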
